A study of Mus musculus with 8 samples.

Results

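The genes described here build the collagen-modifying machinery of the endoplasmic reticulum (ER): the catalytic subunits of collagen prolyl 4-hydroxylase (*P4ha1*, *P4ha2*, *P4ha3*), the lysyl hydroxylases (*Plod1*, *Plod2*, *Plod3*), the collagen chaperone HSP47 (*Serpinh1*) and the collagen galactosyltransferase *Colgalt1*. They were selected by gene symbol alone, and all 8 were found, each as a single gene, among the 55414 genes of the expression table. Expression was measured in cultured B16F10 cells, a mouse melanoma line, in 4 groups of 2 libraries. WT cells and CypD KO cells, in which *Ppif* (encoding cyclophilin D, CypD) was targeted with CRISPR/Cas9 and puromycin-resistant clones were selected, were kept at 21% O2 for 24 h. Control cells (stably transfected with pcDNA alone) and CypD OE cells (with pcDNA-CypD) were G418-resistant clones held for the same time at 1% O2. Control and WT cells therefore differ in oxygen and in vector and selection together, and these cannot be told apart. The same holds for CypD OE and WT cells. CypD OE and Control cells differ in the CypD insert of the plasmid and in the selected clones together. CypD KO and WT cells differ in the targeting of *Ppif* and in the selection of clones together. From Control and CypD OE cells, CypD KO cells differ in oxygen and plasmid as well. These cannot be told apart either. How many clones went into each library is not given in the sources used here.

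Prolyl 4-hydroxylase is a tetramer of 2 α subunits, made from a *P4ha* gene, and 2 β subunits, which are protein disulfide isomerase (*P4hb*). It hydroxylates prolines of the collagen chains, which stabilizes the triple helix. Lysyl hydroxylases modify lysines, some of which receive sugars from COLGALT1 and some of which are later cross-linked outside the cell, and *Plod2* encodes the enzyme that acts mainly on the telopeptides. Both enzyme families need oxygen, iron, 2-oxoglutarate and ascorbate, as do the prolyl hydroxylases that mark HIF1α for degradation, and *P4ha1*, *P4ha2* and *Plod2* are textbook HIF target genes.

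Values are TPM, the relative abundance of a gene's transcripts corrected for their length, estimated by the authors with RSEM. The 13526 genes that reached 1 TPM in 2 or more libraries were compared as log2(TPM + 1) with limma in a single fit of all 8 libraries. A gene is called higher or lower at a Benjamini-Hochberg adjusted p under 0.05 over all genes tested. A fold change on this scale understates the change of low genes. Depth, judged from the steps between low values, was similar, with 1 sequenced fragment per kilobase of effective length worth 0.0818 to 0.0978 TPM. *Ppif* fell from 50.7 and 49.99 TPM (WT) to 10.4 and 12.1 TPM (CypD KO; limma adjusted p = 3.81e-06). Libraries labelled CypD OE held 50.3 and 49.3 TPM, barely more than the 44.6 and 42.3 TPM of Control (adjusted p = 0.0794), so every direction drawn from them rests on their label. All 7 melanocytic markers were expressed, but their summed level differed between the groups, at 12433 to 12587 TPM in CypD KO, 13586 to 13758 TPM in CypD OE, 15665 to 15755 TPM in WT and 20446 to 20984 TPM in Control.

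**Figure D1:**
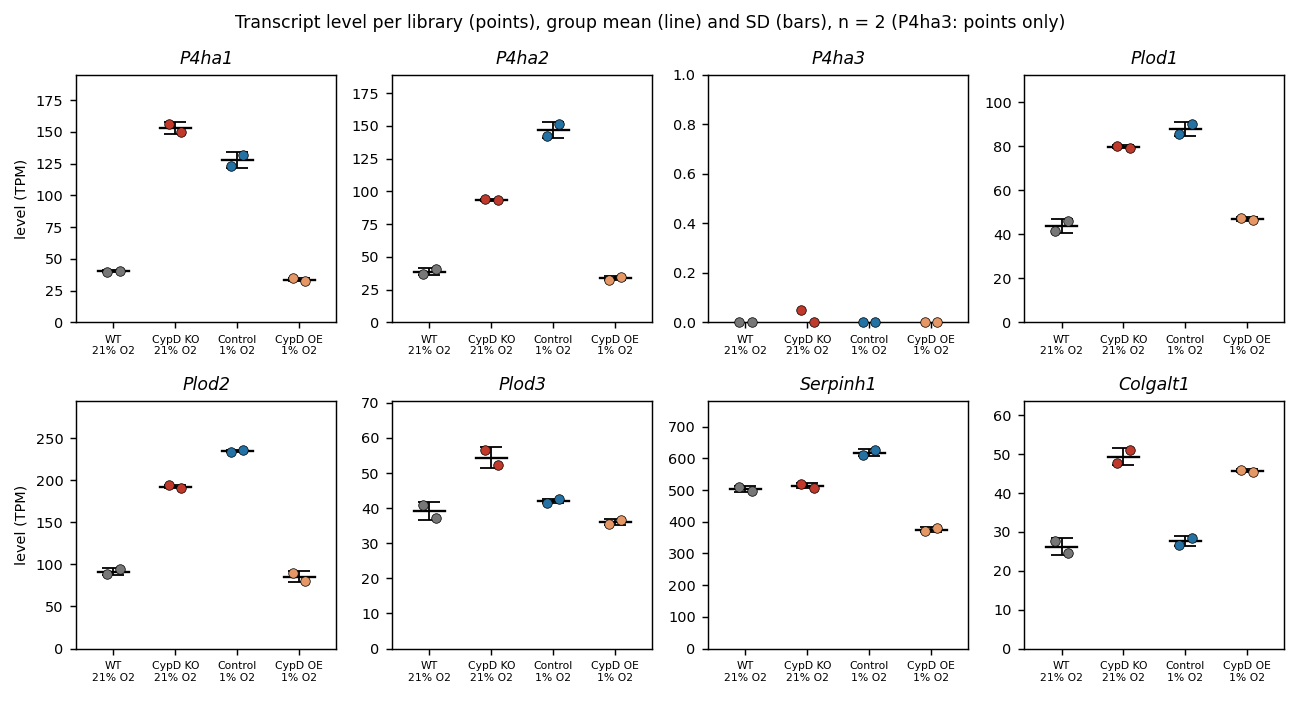
Transcript level in TPM (vertical axes, linear, each starting at 0) of the 8 genes in each library (points) of the 4 groups, with group mean (line) and SD (bars), n = 2. *P4ha1*, *P4ha2*, *Plod1* and *Plod2* are high in CypD KO and Control and low in WT and CypD OE, *Serpinh1* is highest in Control, and *Colgalt1* is high in CypD KO and CypD OE; *P4ha3* does not exceed 0.05 TPM.

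At 21% O2, both expressed prolyl hydroxylase α subunits, all 3 lysyl hydroxylases and *Colgalt1* were higher in CypD KO than in WT cells, by 1.39 to 3.81 times, while the HSP47 gene did not pass the threshold. The 7 genes tested split into 6 higher, 0 lower and 1 not called, against 30.1% of all genes tested called higher and 18.4% called lower. Their median difference was 0.89 on the log2 scale, that of all genes tested 0.09. After median-of-ratios rescaling of the libraries, 6 of the 7 genes were still higher, while the calls over all genes went from 4066 higher and 2486 lower to 3290 higher and 3364 lower. The summed level of 8 fibroblast markers was 34.2 to 37.2 TPM in CypD KO and 15.6 to 17.7 TPM in WT, with 3 of 8 reaching 1 TPM in any library and *Dcn*, *Dpt* and *Thy1* listed at 0 in all libraries. The 2 that were tested went opposite ways, *Postn* from 8.04 and 8.07 TPM to 34.8 and 31.2 TPM (1.91, limma adjusted p = 9.47e-06) and *Col1a2* downwards, with values given among the collagen chains, so the higher sum is that of *Postn*. For 6 macrophage markers it was 24.1 to 25.2 TPM against 3.67 to 4.48 TPM, with 2 of 6 reaching 1 TPM and *Adgre1* and *C1qa* at 0 in all libraries; *Cd68*, at 21.9 and 23.3 TPM against 3.75 and 3.45 TPM, made up most of it. Of the 7 melanocytic markers, 1 was higher and 5 were lower. The part of such markers in the result was not tested, and in bulk RNA fewer cells of a type and less RNA per cell cannot be told apart.

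At 1% O2 the hydroxylases went the other way in the libraries labelled CypD OE. There, 6 of the 7 genes were lower than in Control and *Colgalt1* was higher, against 18.3% of all genes tested that were lower and 19.0% that were higher. The median log2 fold change was -0.89 (all genes tested, 0.00). The summed fibroblast markers were at 9.23 to 11.4 TPM in CypD OE and at 19.0 to 21.0 TPM in Control, the macrophage markers at 1.15 to 1.98 TPM and 4.68 to 4.90 TPM, and 5 endothelial markers (2 of 5 at 1 TPM in any library, *Cdh5* at 0 in all) at 0.41 to 0.92 TPM and 3.29 to 4.21 TPM. In this order, the lower sums were mainly those of *Col1a2*, also a collagen chain (log2 fold change -1.54), *Cd68* (-1.14) and *Vwf* (-1.36). Of the 7 melanocytic markers, 1 was higher and 4 were lower. Their part was not tested either. These 4 libraries share none with the comparison of CypD KO with WT, but the spread behind both tests was estimated from all 8 libraries. *P4ha1*, *P4ha2*, *Plod1*, *Plod2* and *Plod3* were both higher in CypD KO and lower in CypD OE, 5 of 7, a pattern called for 7.61% of all genes tested. For *Plod3* the lower call in CypD OE was lost in other settings, such as without the filter on low TPM (limma adjusted p = 0.0645).

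Control cells at 1% O2, compared with WT cells at 21% O2, had 5 of the 7 genes higher and 0 lower, where 12.1% of all genes tested were higher and 12.1% lower. Their median difference on the log2 scale was 0.99 (all genes tested, 0.01). Among the markers, 6 of the 7 melanocytic ones were also higher and 0 lower, and the endothelial sum was 3.29 to 4.21 TPM in Control against 0.66 to 1.87 TPM in WT, mainly *Vwf* (1.05, limma adjusted p = 0.0243). The fibroblast sum was 19.0 to 21.0 TPM against 15.6 to 17.7 TPM and the macrophage sum 4.68 to 4.90 TPM against 3.67 to 4.48 TPM. Their part in this comparison was not tested. In CypD OE cells at 1% O2, compared with WT, *Colgalt1* was higher and *P4ha1* and *Serpinh1* were lower. These are 1 and 2 of 7, against 14.0% and 13.7% of all genes tested. The median log2 fold change was -0.11 (all genes tested, 0.01). Both comparisons use the same WT libraries as CypD KO minus WT. Control minus WT shares the Control libraries with CypD OE minus Control, and CypD OE minus WT shares the CypD OE libraries with it.

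**Figure D2:**
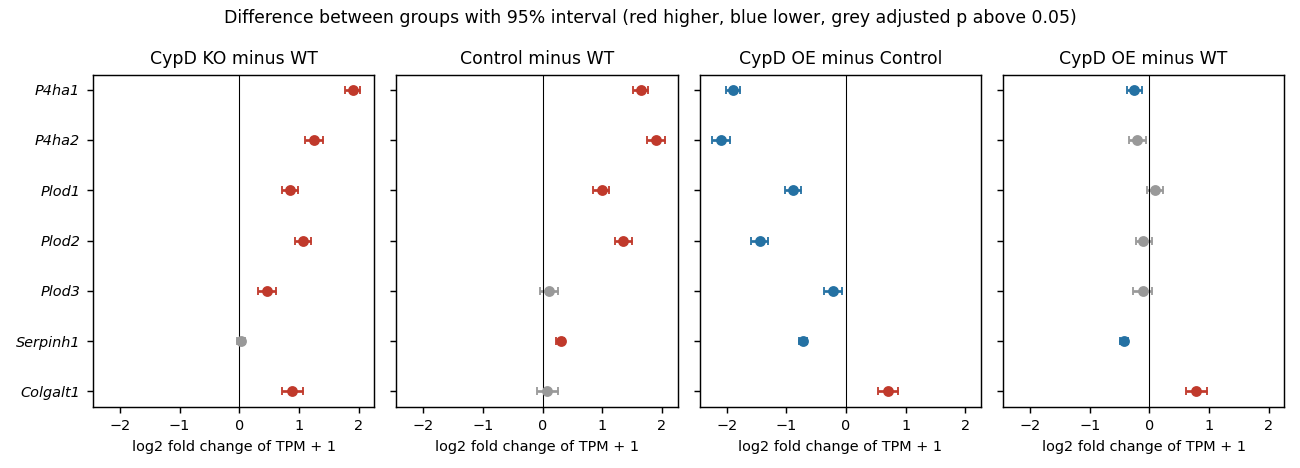
Log2 fold change of TPM + 1 (horizontal axis) with its 95% interval for the 7 tested genes in 4 comparisons, coloured by the call (red higher, blue lower, grey adjusted p above 0.05). *P4ha1*, *P4ha2*, *Plod1* and *Plod2* lie right of 0 in CypD KO minus WT and Control minus WT and left of 0 in CypD OE minus Control, while *Colgalt1* lies right of 0 in CypD OE minus Control.

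*P4ha1* encodes the α subunit of the main prolyl 4-hydroxylase of most cells (ENSMUSG00000019916; chromosome 10 of GRCm39, 59159092 to 59209126, plus strand). Its WT level of 39.6 and 40.6 TPM compared with 156 and 149.8 TPM in CypD KO, while Control libraries had 123 and 132 TPM and CypD OE libraries 34.6 and 32.7 TPM. The 2 libraries of each group lay apart from those of every other group, in the order CypD KO, Control, WT, CypD OE. CypD KO was 3.81 times WT, or 1.91 on the log2 scale (standard error 0.052, adjusted p = 1.54e-06), and 1.69% of genes tested had a higher log2 fold change. Control was 3.79 times CypD OE (log2 fold change of CypD OE minus Control -1.89, adjusted p = 1.91e-06). CypD KO at 21% O2 even exceeded Control at 1% O2, by 1.20 times (limma adjusted p = 0.00688), whereas the small step from WT down to CypD OE (log2 fold change -0.25, adjusted p = 0.0148) lost its call without WT replicate 2 (adjusted p = 0.0697) or CypD OE replicate 2 (adjusted p = 0.0795).

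*P4ha2* encodes the second α subunit (ENSMUSG00000018906; chromosome 11 of GRCm39, 53981553 to 54022494, plus strand). Its levels were 36.8 and 40.6 TPM in WT, 94.3 and 93.1 TPM in CypD KO, 143 and 151 TPM in Control, and 32.5 and 34.6 TPM in CypD OE. Here the Control libraries were the highest, 1.57 times those of CypD KO (log2 fold change of CypD KO minus Control -0.64, limma adjusted p = 2.52e-04), the reverse of the order seen for *P4ha1*. CypD KO was 2.42 times WT (log2 fold change 1.26, standard error 0.061, adjusted p = 1.27e-05) and Control was 4.38 times CypD OE (-2.10, adjusted p = 2.32e-06), with 0.532% of genes tested having a lower log2 fold change in CypD OE minus Control. WT and CypD OE, neighbours in the order, did not differ past the threshold (-0.20, 95% interval -0.34 to -0.05, adjusted p = 0.0542), though 4 other settings, among them the fit without WT replicate 1, placed this difference past it (adjusted p = 0.0381 to 0.0451).

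*P4ha3*, the third α subunit gene (ENSMUSG00000051048; chromosome 7 of GRCm39, 99934686 to 99968907, plus strand), was listed at 0 in 7 libraries and at 0.05 TPM in CypD KO replicate 1, which corresponds to about 1.3 fragments. It did not pass the filter on low values and entered no test. At this depth 3 fragments correspond to 0.11 to 0.131 TPM, a level that a count of 0 allows by counting error alone.

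*P4ha1*, *P4ha2*, *Plod1* and *Plod2* went with most HIF targets (listed below) in CypD KO minus WT, Control minus WT and CypD OE minus Control. The promoter windows of the genes are therefore shown, since the hypoxia response element to which HIF binds has a short core. RefSeq windows (GRCm38.p6) from 250 bases before to 50 bases after the transcription start were at hand for 7 of the 8 genes, 8 windows in all, and were located in GRCm39 by exact match. The gene without a window was *Plod2*. The core was searched as ACGTG or GCGTG on both strands and was found in 6 of the 7 genes, and in 43.8% of all 32851 windows. The matches numbered 3 for *P4ha1*, 4 for *P4ha2*, 2 for *Plod1*, 4 for *Plod3*, 1 for *Serpinh1*, 5 over the overlapping windows of *Colgalt1* and 0 for *P4ha3*. GC content had a median of 64.3% in the windows of these genes and 52.7% over all windows. Of the other motifs searched on both strands, the heat shock element GAANNTTC was found for *Colgalt1* and *Plod1* (7.9% of all windows), the E-box CACGTG, which contains ACGTG, for 0 genes (7.2%) and the ER stress element for 0 genes (0.1%). A match describes letters and not a bound site. Matches and their flanks are printed 5′ to 3′ on the gene's strand, with the core in capitals (as CACGT or CACGC where it lies on the opposite strand) and its distance before the RefSeq start. Shown are the matches before the start for both expressed α subunit genes, and for the other genes the match nearest before the start. The *P4ha2* lines at 78 and 69 bases overlap, each with its own core in capitals.
*P4ha1* (163 bases before the start, chr10:59158943-59158971, plus strand): acgggaacggtgGCGTGgcaggagctctg
*P4ha1* (126 bases before the start, chr10:59158980-59159008, plus strand): cactgcgtcctcGCGTGggccagcctagg
*P4ha1* (16 bases before the start, chr10:59159090-59159118, plus strand): tgtgacagagcgCACGTagcgagggctgc
*P4ha2* (107 bases before the start, chr11:53991631-53991659, plus strand): tggtgccggtccCACGCggcgcaaggagg
*P4ha2* (78 bases before the start, chr11:53991660-53991688, plus strand): tgtgcatcgcatACGTGcagcgcgtggcg
*P4ha2* (69 bases before the start, chr11:53991669-53991697, plus strand): catacgtgcagcGCGTGgcggctcgggcc
*Plod1* (20 bases before the start, chr4:148021237-148021265, minus strand): aggcgggcggagGCGTGcgcggcaccgcc
*Plod3* (54 bases before the start, chr5:137015807-137015835, plus strand): cttgaagtcattACGTGatgttcccttgg
*Serpinh1* (171 bases before the start, chr7:99002601-99002629, minus strand): accctgcttttcCACGTccaggaccgcgg
*Colgalt1* (74 bases before the start, chr8:72063726-72063754, plus strand): tccctttaaggaGCGTGtcaggggtggga

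The RefSeq starts of *P4ha2* and *Serpinh1* lie kilobases inside the span of the GENCODE gene, so their windows are not at its outer end.

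*Plod2*, whose product hydroxylates telopeptide lysines (ENSMUSG00000032374; chromosome 9 of GRCm39, 92424119 to 92490494, plus strand), was the most abundant lysyl hydroxylase in every library. It was at 88.3 and 94.2 TPM in WT, 194 and 191 TPM in CypD KO, 234 and 236 TPM in Control, and 90.1 and 80.6 TPM in CypD OE. The 2 high groups did not overlap with the 2 low groups, while the ranges of WT and CypD OE overlapped. CypD KO was 2.11 times WT (log2 fold change 1.07, standard error 0.058, adjusted p in limma = 1.93e-05), and Control was 2.57 times WT (1.35, adjusted p = 3.03e-05) and 2.75 times CypD OE (adjusted p = 8.66e-06). Control exceeded CypD KO by 1.22 times (adjusted p = 0.00709), and CypD OE minus WT was -0.10 (95% interval -0.23 to 0.04, adjusted p = 0.261).

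*Plod1*, whose product modifies lysines of the helical part (ENSMUSG00000019055; chromosome 4 of GRCm39, 147991574 to 148021356, minus strand), also had its highest levels in Control and CypD KO, with smaller steps. Its levels were 41.6 and 45.9 TPM in WT, 80.2 and 79.3 TPM in CypD KO, 85.5 and 90.0 TPM in Control, and 47.4 and 46.3 TPM in CypD OE. CypD KO was 1.82 times WT (log2 fold change 0.85, standard error 0.057, adjusted p = 4.52e-05) and Control was 1.87 times CypD OE (adjusted p = 6.70e-05). The libraries of neighbouring groups did not overlap, but their differences did not pass the threshold, with a log2 fold change of -0.14 for CypD KO minus Control (95% interval -0.27 to -0.00, adjusted p = 0.0956) and of 0.10 for CypD OE minus WT (95% interval -0.04 to 0.23, adjusted p = 0.248). Median-of-ratios rescaling placed the former past the threshold (-0.22, adjusted p = 0.0138).

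*Plod3* encodes an enzyme that is both a lysyl hydroxylase and a glycosyltransferase (ENSMUSG00000004846; chromosome 5 of GRCm39, 137015827 to 137025502, plus strand). It was at 40.9 and 37.3 TPM in WT, 56.5 and 52.2 TPM in CypD KO, 41.5 and 42.5 TPM in Control, and 35.4 and 36.7 TPM in CypD OE. Unlike for *Plod1* and *Plod2*, the difference between Control and WT was not past the threshold (log2 fold change 0.10, 95% interval -0.05 to 0.26, limma adjusted p = 0.293). CypD KO was 1.39 times WT (0.46, standard error 0.064, adjusted p = 0.00115). The lower level in CypD OE than in Control (-0.22, adjusted p = 0.0369) lost its call without any 1 of the 4 libraries (adjusted p = 0.0853 to 0.149) and in 3 other settings. *Plod3* shares 575 exon bases with *Znhit1* on the opposite strand (up to 79.6 TPM), and whether counting used strand is not given in the sources used here.

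*Serpinh1* encodes HSP47, the collagen-specific chaperone that binds the folded procollagen helix in the ER (ENSMUSG00000070436; chromosome 7 of GRCm39, 98994220 to 99005076, minus strand). It was the most abundant of the 8 genes, at 509 and 497 TPM in WT, 519 and 508 TPM in CypD KO, 611 and 625 TPM in Control, and 371 and 380.2 TPM in CypD OE. WT and CypD KO overlapped (log2 fold change 0.03, 95% interval -0.04 to 0.10, limma adjusted p = 0.437), while Control lay above and CypD OE below all other libraries. Control was 1.23 times WT (0.30, standard error 0.028, adjusted p = 7.29e-04) and 1.65 times CypD OE (adjusted p = 8.26e-06), and WT was 1.34 times CypD OE (adjusted p = 2.17e-04). *Serpinh1* therefore differed past the threshold at 1% O2 between Control and CypD OE, but not between CypD KO and WT; whether these differences differ from each other was not tested. The sign of the latter turned to -0.07 (adjusted p = 0.0893) after median-of-ratios rescaling.

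*Colgalt1* encodes the galactosyltransferase that adds the first sugar to hydroxylysine (ENSMUSG00000034807; chromosome 8 of GRCm39, 72063607 to 72079451, plus strand). It was at 27.7 and 24.6 TPM in WT, 47.8 and 51.0 TPM in CypD KO, 26.7 and 28.5 TPM in Control, and 46.1 and 45.5 TPM in CypD OE. The CypD KO and CypD OE libraries thus lay above those of WT and Control, without overlap. CypD KO was 1.89 times WT (log2 fold change 0.89, standard error 0.072, adjusted p = 1.00e-04), and CypD OE was 1.66 times Control (0.71, adjusted p = 4.48e-04) and 1.75 times WT (0.79, adjusted p = 5.77e-04). Control minus WT was 0.08 (95% interval -0.09 to 0.25, adjusted p = 0.486), and CypD KO minus CypD OE 0.11 (95% interval -0.06 to 0.28, adjusted p = 0.264). *Colgalt1* was the only one of the 7 genes called higher both in CypD KO minus WT and in CypD OE minus Control, as were 6.57% of all genes tested. It shares 2758 exon bases with *Unc13a* on the opposite strand, which reached 0.99 TPM at most.

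The 2 remaining comparisons order the groups. In CypD KO minus Control, 3 of the 7 genes were higher (*P4ha1*, *Plod3*, *Colgalt1*) and 3 lower (*P4ha2*, *Plod2*, *Serpinh1*), against 27.4% and 16.5% of all genes tested. In CypD KO minus CypD OE, 6 of 7 were higher and 0 lower, against 29.6% and 19.3% of all genes tested. The exception was *Colgalt1*.

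Since TPM is corrected for length, transcripts of paralogs can be set side by side within a library. *P4ha1* made up 51.9% and 50.03% of the summed *P4ha* TPM in WT, 62.4% and 61.7% in CypD KO, 46.3% and 46.6% in Control, and 51.6% and 48.6% in CypD OE. CypD KO libraries thus had more *P4ha1* than *P4ha2* transcripts and Control libraries fewer, and the 2 libraries of each of these groups lay outside the range of the other groups. *Plod2* made up 52.4% ± 1.00 (SD, n = 2) of the summed *Plod* TPM in WT, 59.0% ± 0.39 in CypD KO, 64.4% ± 0.57 in Control and 50.7% ± 2.02 in CypD OE. The share of *Plod3* was 22.5% ± 2.08 in WT, 16.6% ± 0.63 in CypD KO, 11.5% ± 0.03 in Control and 21.5% ± 1.37 in CypD OE. With 2 libraries a group these shares were not tested.

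**Figure D3:**
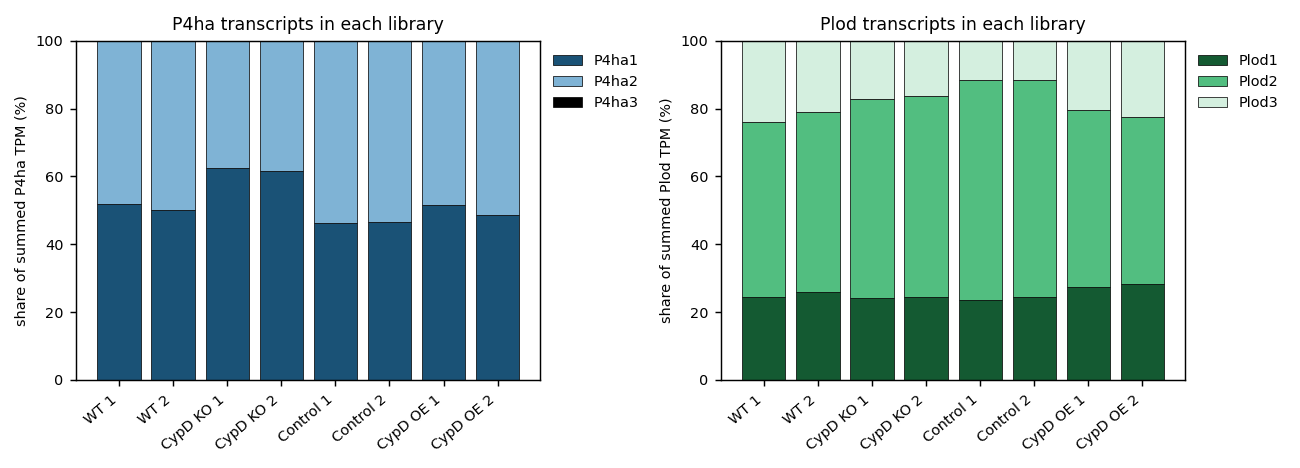
Share of each paralog, in percent of the summed TPM of its family (vertical axis from 0 to 100), in each library (stacked bars) for the *P4ha* genes and the *Plod* genes. *P4ha1* takes its largest share in CypD KO (62.4% and 61.7%), and *Plod2* its largest in Control (64.8% and 64.0%).

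Summed over the family, *P4ha* transcripts reached 247 ± 5.39 TPM in CypD KO and 275 ± 12.7 TPM in Control, against 78.8 ± 3.37 TPM in WT and 67.3 ± 0.11 TPM in CypD OE (SD, n = 2). *P4hb*, the β subunit (ENSMUSG00000025130; chromosome 11 of GRCm39, 120451122 to 120464538, minus strand), was at 590.2 and 599.96 TPM in WT, 856 and 856 TPM in CypD KO, 907 and 914 TPM in Control, and 520.2 and 531 TPM in CypD OE. It was called in the same directions as the α subunits but by less, 1.44 times higher in CypD KO than in WT (log2 fold change 0.52, limma adjusted p = 8.97e-06) and lower in CypD OE than in Control (-0.79, adjusted p = 2.32e-06). Accordingly there were 7.73 and 7.39 *P4hb* transcripts per *P4ha* transcript in WT, 3.41 and 3.53 in CypD KO, 3.42 and 3.22 in Control, and 7.75 and 7.88 in CypD OE. The β subunit also serves as a free disulfide isomerase, so the ratio is not that of assembled enzyme.

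Of 14 other genes of collagen folding in the ER, 12 passed the filter (*P3h4* and *Colgalt2* did not), and 4 were higher and 3 lower in CypD KO than in WT, with a median log2 fold change of 0.03 (all genes tested, 0.09). These counts are close to the 30.1% and 18.4% of all genes tested that were called in each direction, so they say nothing particular about the list. Besides *P4hb*, the prolyl isomerase gene *Fkbp14* (9.63 and 12.8 TPM in WT, 23.8 and 26.0 TPM in CypD KO, limma adjusted p = 6.24e-04), the ER potassium channel gene *Tmem38b* (0.98, adjusted p = 0.00479) and the prolyl 3-hydroxylase gene *P3h2* (0.32, adjusted p = 0.0159) were higher. *Fkbp10*, encoding FKBP65, which takes part in telopeptide lysine hydroxylation, was lower, with 9.93 and 11.2 TPM in WT against 2.48 and 2.72 TPM in CypD KO (log2 fold change -1.68, adjusted p = 7.50e-05). So were the general chaperones *Hspa5* (-0.34, adjusted p = 1.50e-04) and *Hsp90b1* (-0.34, adjusted p = 7.52e-05). The prolyl 3-hydroxylase complex genes *P3h1*, *Crtap* (-0.06, adjusted p = 0.504) and *Ppib* (-0.01, adjusted p = 0.825), as well as *P3h3* and *Pdia3* (0.01, adjusted p = 0.821), did not pass the threshold.

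At 1% O2, 6 of the 12 genes were lower and 2 higher in CypD OE than in Control (median -0.28, all genes tested 0.00), against 18.3% and 19.0% of all genes tested. The lower ones were *P4hb*, *Hsp90b1* (-0.97, limma adjusted p = 1.52e-06), *Pdia3* (-0.62, adjusted p = 1.01e-05), *Hspa5* (-0.61, adjusted p = 2.41e-05), *Fkbp10* (-0.59, adjusted p = 0.0104) and *Ppib* (-0.16, adjusted p = 0.017). The higher ones were *P3h2*, with 11.4 and 12.3 TPM in Control against 27.0 and 25.3 TPM in CypD OE (1.08, adjusted p = 1.31e-04), and *Crtap* (0.58, adjusted p = 7.72e-04). Both were lower in Control than in WT, with log2 fold changes of -0.41 for *P3h2* (limma adjusted p = 0.0123) and -0.56 for *Crtap* (adjusted p = 0.00185). In that comparison 5 of the 12 were higher and 2 lower, against 12.1% and 12.1% of all genes tested.

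**Figure D4:**
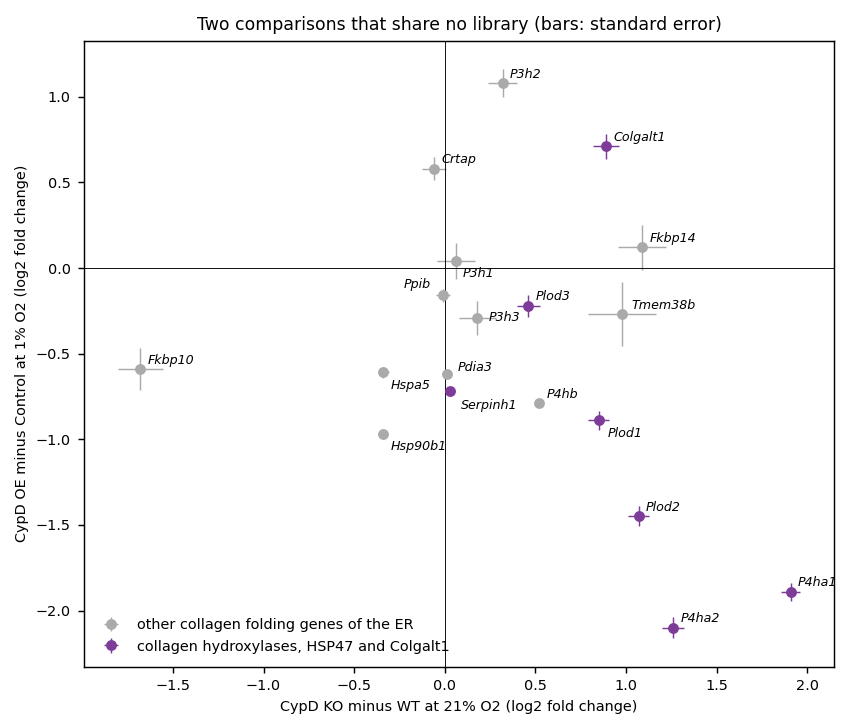
Log2 fold change of TPM + 1 in CypD KO minus WT (horizontal axis) and in CypD OE minus Control (vertical axis), which share no library, for the 7 tested genes (purple) and 12 genes of collagen folding in the ER (grey), with standard errors as bars. The standard errors rest on a spread estimated from all 8 libraries. *P4ha1*, *P4ha2*, *Plod1*, *Plod2* and *Plod3* lie to the lower right, *Colgalt1* to the upper right, and *Serpinh1* below 0 near the vertical zero line.

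*Serpinh1* can be read beside the unfolded protein response genes, which are ER chaperones and their regulators and include *Hspa5* and *Hsp90b1* of the collagen folding list. Of 16 genes tested, 14 were higher and 0 lower in Control than in WT (12.1% and 12.1% of all genes tested). In CypD OE, 14 were lower and 0 higher than in Control (18.3% and 19.0% of all genes tested). These are the directions in which *Serpinh1* was called, and also those of most HIF target genes described below. In CypD KO compared with WT, *Serpinh1* did not pass the threshold, while 2 of the 16 were higher and 11 lower (median -0.22, 30.1% and 18.4% of all genes tested). *Dnajb9* (1.17) and *Edem1* (0.25) were higher, and *Manf*, at 517 and 508 TPM in WT and 385 and 382 TPM in CypD KO, was lower (-0.42).

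Most HIF target genes, a list without any of the 8 genes, were called in the directions of *P4ha1*, *P4ha2*, *Plod1* and *Plod2*. This did not hold in every comparison. Of 20, 16 were higher and 1, *Ndrg1*, lower (-0.22) in CypD KO than in WT, 18 were higher and 0 lower in Control than in WT, and 18 were lower and 0 higher in CypD OE than in Control. The shares of all genes tested called in these directions were 30.1%, 12.1% and 18.3%. In CypD OE minus WT, 6 were lower and 0 higher, against 13.7% and 14.0% of all genes tested. In CypD KO minus Control, 2 were higher and 10 lower (27.4% and 16.5% of all genes tested). *P4ha1* was higher there (0.26, limma adjusted p = 0.00688). The mitophagy receptor gene *Bnip3* was at 14.4 and 11.1 TPM in WT, 258 and 249 TPM in CypD KO, 311 and 307 TPM in Control, and 13.6 and 12.5 TPM in CypD OE. Its log2 fold change in CypD KO minus WT was 4.22, followed in that comparison by *Adm*, encoding adrenomedullin (3.25), and the pyruvate dehydrogenase kinase gene *Pdk1* (2.92).

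Of 27 genes for collagen chains, the substrates of these enzymes, 16 passed the filter, and 9 were higher and 4 lower in CypD KO than in WT, against 30.1% and 18.4% of all genes tested. In Control compared with WT, *Col14a1* was higher (0.64, limma adjusted p = 0.0356) and *Col5a3* lower (-0.56, adjusted p = 0.0288); without WT replicate 2, Control replicate 1 or Control replicate 2, 0 chains were called in that comparison. *Col1a1*, encoding the α1 chain of collagen I, was at 2.22 and 1.66 TPM in WT, 38.5 and 41.1 TPM in CypD KO, 3.29 and 2.72 TPM in Control, and 0.20 and 0.81 TPM in CypD OE (CypD KO minus WT 3.80, limma adjusted p = 2.29e-05). Its partner in the collagen I trimer, *Col1a2*, went the other way, from 9.03 and 6.87 TPM in WT to 1.09 and 2.17 TPM in CypD KO (-1.79, adjusted p = 0.00176). *Col5a1* rose from 7.80 and 9.06 TPM to 43.9 and 44.1 TPM in CypD KO (2.26, adjusted p = 2.77e-05). With a filter of 5 TPM, which fewer chains passed, 4 were called higher and 3 lower in CypD KO minus WT. In CypD OE minus Control 4 chains were higher and 6 lower, against 19.0% and 18.3% of all genes tested. Among the lower were *Col1a2* (-1.54), *Col14a1* (-1.44) and *Col1a1* (-1.44). Under the filter of 5 TPM, 5 chains were called.

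Of 15 genes of procollagen export and processing, 10 passed the filter, with 4 higher and 1 lower in CypD KO than in WT, near the shares of all genes tested (30.1% and 18.4%). Higher were the C-proteinase enhancer gene *Pcolce2* (0.22 and 0.46 TPM in WT, 12.2 and 9.99 TPM in CypD KO; 3.17, limma adjusted p = 9.68e-05), the N-proteinase gene *Adamts14* (2.56, adjusted p = 1.31e-05), the C-proteinase gene *Bmp1* (5.45 and 4.71 TPM in WT, 18.1 and 19.4 TPM in CypD KO; 1.70, adjusted p = 7.27e-05) and the protease gene *Furin* (1.59). *Pcolce*, another C-proteinase enhancer gene, was lower (-0.51). Between CypD OE and Control 1 was higher and 2 were lower (19.0% and 18.3% of all genes tested), with *Mia2* higher (0.27). The lower ones were *Mia3* (-0.43, adjusted p = 0.00223), encoding the procollagen cargo receptor TANGO1, and the COPII coat gene *Sec24d* (-0.42, adjusted p = 0.00383).

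The genes with the most similar profile over the 8 libraries were sought by Pearson correlation of log2(TPM + 1) among genes spanning at least 1 log2 unit, given as a description since the libraries fall into 4 groups. For *P4ha1* they were *Txnip* (r = 0.999), *Ero1a* (0.996) and *Rdh14* (0.993). *Ero1a*, the oxidase that recharges protein disulfide isomerase, averaged 303 TPM in CypD KO and 266 TPM in Control, against 88.1 TPM in WT and 82.3 TPM in CypD OE. For *P4ha2* they were *Loxl2*, *Tpi1* and *Higd1a* (0.996 each), for *Plod1* *Ak4* (0.994), *Hk2* (0.993) and *Bnip3l* (0.992), and for *Plod2* *Pdk1* (0.996), *Loxl2* (0.995) and *Neat1* (0.994). *Loxl2*, a lysyl oxidase that starts collagen cross-links, ranged from 0.34 to 31.3 TPM over the libraries. *Colgalt1* had another set, *Papln* (0.992), *Pdzd4* (0.991) and *Gspt2* (0.989), of which *Gspt2* averaged 15.2 TPM in CypD KO and 13.9 TPM in CypD OE, against 5.77 TPM in WT and 7.25 TPM in Control. *Plod3* and *Serpinh1* spanned 0.66 and 0.75 log2 units and were left out of this search.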

How the data were processed

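RNA of B16F10 cells was sequenced after ribosomal RNA depletion (KAPA RiboErase). The deposited table holds 1 TPM value per gene and library; the authors' processing notes name cutadapt 3.4, STAR 2.7.8a, RSEM 1.3.1, DESeq2 1.26.0 and GRCm39, and the study's own tests used counts, which the table does not hold. TPM is a share of each library, so a change in abundant genes shifts all others. Depth was estimated from the steps between low TPM values; 83.0% to 85.9% of these lay within 0.15 of a whole fragment number (30.0% if evenly spread), so the estimate is approximate.

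Groups came from the sample titles. Replicate 1 is the library whose name has no suffix, replicate 2 the other; separate cultures are not stated, so p-values measure only the spread between these libraries, which may be technical. Genes reaching 1 TPM in 2 or more libraries were tested with limma 3.58.1 (R 4.3.3; lmFit and eBayes with trend, two-sided) on log2(TPM + 1), with 4 group means over 8 libraries and Benjamini-Hochberg adjustment over 13526 genes; the script was tested on simulated data. Folds are ratios of group means of TPM. Tables and figures were made with Python 3.11.15, pandas 2.3.3, numpy 2.4.6 and matplotlib 3.10.9. Gene positions are from GENCODE M39 on GRCm39 and promoter windows from RefSeq. The genes and lists were chosen with earlier results of these data known. Named are the 8 genes, *Ppif*, the list of collagen folding in the ER, up to 3 called genes with the largest absolute log2 fold change per other list and comparison, and the 3 most similar profiles per gene; genes named to complete a small count, such as *Furin*, *Edem1* and *Ndrg1*, were chosen after their values were seen. *Ddit3*, whose symbol stands on more than 1 row, was left out of list counts. Alternatives were a pseudocount of 0.1, no filter or a 5 TPM filter, rescaling by median of ratios, a fit of the 4 libraries compared, a replicate block, eBayes without trend, and each library left out.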

Additional observations from a re-analysis of the deposited data

How the results depend on the processing

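The counts of the 7 genes called stayed within 1.5 times of the reported ones under every alternative: 6 in CypD KO minus WT, 6 to 7 in CypD OE minus Control, 5 in Control minus WT, 2 to 4 in CypD OE minus WT, 6 to 7 in CypD KO minus Control and 6 in CypD KO minus CypD OE. Of 294 log2 fold changes in settings with all libraries, 286 kept direction and side of the threshold, 3 lost and 4 gained the call and 1 reversed; without 1 library it was 160, 6, 1 and 1 of 168. Reversed were *Serpinh1* in CypD KO minus WT (-0.07 with median-of-ratios rescaling) and *Colgalt1* in Control minus WT (-0.01 to 0.16 without 1 library, -0.01 without WT replicate 2), neither past the threshold.

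*Plod3* in CypD OE minus Control (-0.24 to -0.19 without 1 library) had an adjusted p of 0.0645 without filter, 0.0512 with the replicate block and 0.0611 without trend. *P4ha2* in CypD OE minus WT had 0.0451 with the filter of 5 TPM, 0.0381 with rescaling, 0.0406 with the block and 0.0407 without WT replicate 1. The cause was not tested. Deviations of same-numbered libraries from their group means had correlations from -0.03 to 0.108. These values cannot tell whether same-numbered libraries were handled together, and the labels do not say so. With the replicate block, 3894 genes were higher and 2391 lower in CypD KO minus WT. Rescaling gave 3011 higher and 2994 lower genes in CypD KO minus Control (3709 and 2236 before) and 3420 and 3268 in CypD KO minus CypD OE (4005 and 2613 before). Of 726 list counts, 65 moved by over 1.5 times. With 2 libraries a group, 1 library left out leaves a group whose spread is taken from the others.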

Other observations

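Other oxygenases that need 2-oxoglutarate were read from a list of 13 genes, of which 12 passed the filter. In CypD KO compared with WT, 5 were higher (*Egln3*, *Phyhd1*, *Egln1*, *Asph* and *Jmjd6*) and 0 lower, against 30.1% and 18.4% of all genes tested. The HIF prolyl hydroxylase gene *Egln1* was at 22.1 and 21.9 TPM in WT, 70.9 and 68.9 TPM in CypD KO, 102 and 99.3 TPM in Control, and 21.2 and 22.4 TPM in CypD OE, with the Control libraries highest, as for *P4ha2* and *Plod2*. *Egln3* went from 1.35 and 1.14 TPM (WT) to 8.52 and 7.35 TPM (CypD KO; limma log2 fold change 1.99). In CypD OE minus Control 3 were higher and 5 lower (19.0% and 18.3% of all genes tested), among the latter *Egln1* (-2.16), *Egln3* (-2.14) and *Jmjd6*, a lysyl hydroxylase of nuclear proteins (-0.94). *Egln1* and *Egln3* also stand in the list of HIF target genes.

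Of 10 heat shock genes tested, 2 were higher (*Bag3* and *Dnajb1*) and 5 lower in CypD KO than in WT, against 30.1% and 18.4% of all genes tested. The lower ones included the mitochondrial chaperonin genes *Hspd1* (-0.96) and *Hspe1* (-0.79). In CypD OE minus Control 2 were higher and 4 lower (19.0% and 18.3% of all genes tested), with *Hsp90aa1* at -0.75.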
